A study of Danio rerio with 6 samples.

Results

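The miR-200 family of zebrafish was followed through small RNA libraries of whole embryos. Its members were taken by name, as every mature miRNA of the deposited table called dre-miR-200 with a letter, dre-miR-141 or dre-miR-429 with any suffix. The rule found 6 of the 230 mature miRNAs in the table, namely dre-miR-200a, dre-miR-200b, dre-miR-200c, dre-miR-141, dre-miR-429a and dre-miR-429b, each listed under 1 precursor and 1 arm.

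The libraries were made from embryos of the wild-type AB strain that had received 1.5 ng of a morpholino in the yolk as 1-cell eggs. MO-Tbx5a is directed against the translational start of tbx5a, a T-box transcription factor of heart and pectoral fin, and MO-Ct is the control morpholino. Each library is a pool of 50 whole embryos. There was 1 library of MO-Tbx5a embryos and 1 of MO-Ct embryos at 48 hpf, and there were 2 of MO-Tbx5a embryos and 2 of MO-Ct embryos at 24 hpf. All groups were injected, so no uninjected embryo is among them. Tbx5a protein is not seen by small RNA sequencing, and the knockdown could therefore not be checked in these libraries. In whole embryos, fewer cells of a type and less RNA per cell cannot be told apart.

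Members of the miR-200 family are known as miRNAs of epithelial cells. In mammalian cells they repress Zeb1 and Zeb2, which silence E-cadherin, and so oppose the change of epithelial into mesenchymal cells. In zebrafish they are found in epithelia such as the epidermis and the olfactory epithelium. A miRNA recognises its targets mainly through its seed, near its 5′ end. miR-200b, miR-200c and the miR-429 members share a seed, and miR-200a and miR-141 share another that differs from it at a single base.

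In RefSeq (assembly GRCz12tu) all 6 members were matched by name, and their genes stand in 2 groups on different chromosomes. The genes of miR-200b, miR-200a and miR-429a follow each other in this order, and so do those of miR-429b, miR-141 and miR-200c, with 0 other genes starting between them in either group. miR-200c is next to eno1b and miR-429b next to ppil1, both protein-coding. Each group holds members of both seeds. The mature forms of miR-200a and miR-141 are close to identical, as are those of miR-429a and miR-429b, and reads were mapped at 95% identity, so the division of reads within these pairs is uncertain. Mature sequences were not compared here, so the same doubt holds for other members that share a seed, such as miR-200b and miR-200c. Ratios between the 2 gene groups carry this doubt too.

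The values are normalized reads, the reads of a library divided by its size factor. The step between low values, taken as 1 read, ranged from 0.466 to 1.87 normalized reads. In these steps the miRNAs of a library sum to an estimated 1699876 to 3148888 reads, of which the family had 9875 to 19638. These sums are well above the numbers of miRNA reads that the study states for the libraries. Whether a read was counted under more than 1 miRNA was not tested, so the sums are no measure of the depth, and all counting intervals rest on a step being 1 read. The miR-430 family, the miRNAs that clear maternal mRNA, made up 5.15% of the normalized reads of the library labelled MO-Tbx5a and 15.2% of those of the library labelled MO-Ct at 48 hpf, against 46.0% to 58.7% at 24 hpf. The names of the 48 hpf libraries rest on the labels. Apart from miR-7b, the changes that the study lists for this stage have the opposite direction in the labelled libraries, at a similar size. Those that it lists for 24 hpf have the same direction as in the libraries of 24 hpf. The study also states that quantitative RT-PCR bore out its measured miRNA changes, with an exception. Whether the names of the 48 hpf libraries were exchanged was not tested. Directions between the morpholinos at 48 hpf are therefore given for the libraries as labelled, and would turn if the names were exchanged. The fits of 48 hpf against 24 hpf also use these names, and were not rerun with the names exchanged.

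The members covered a wide range of abundance. By the mean over the MO-Ct libraries at 24 hpf the order was miR-429a, with 5112 ± 620 normalized reads, miR-200b, with 5107 ± 879, miR-200a, with 3053 ± 473, miR-141, with 1082 ± 69.9, miR-200c, with 362 ± 25.3, and miR-429b, with 45.2 ± 9.38 (SD, n = 2 libraries). miR-429a and miR-200b did not differ beyond their spread, and their order turned round in MO-Tbx5a embryos, with 5636 ± 791 for miR-429a and 6144 ± 1014 for miR-200b. The other neighbours were further apart than their SDs. miR-200b ranked 49 in the MO-Tbx5a library and 42 in the MO-Ct library at 48 hpf, against 29 to 33 at 24 hpf, and miR-429b ranked between 155 and 174 in the 6 libraries.

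**Figure D1:**
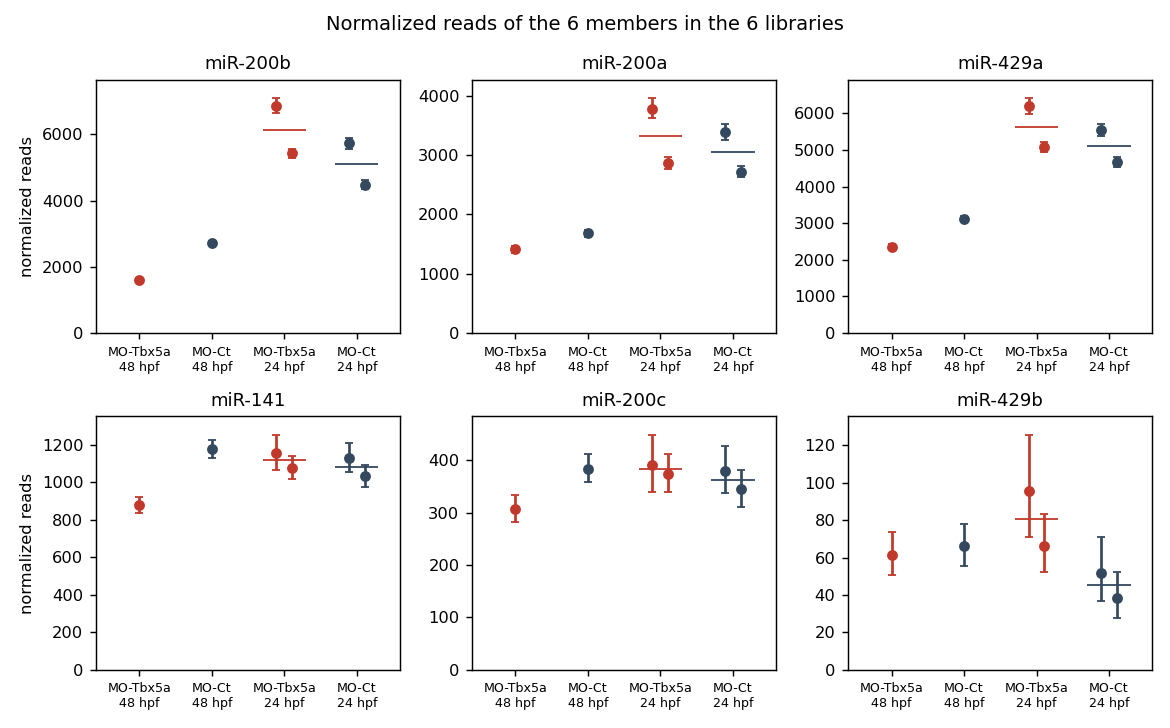
Normalized reads (vertical axis, from 0) of each member in each library, by morpholino and stage (horizontal axis). Points are libraries, bars are 95% exact Poisson intervals that cover counting error only, and lines are means of 2 libraries. In the upper row both libraries at 48 hpf lie below all 4 at 24 hpf, and in the lower row they do not.

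Between the stages, the members called depended on the scaling of the libraries. miR-200b, miR-200a and miR-429a fell at 48 hpf relative to 24 hpf on the scale of the deposited size factors, a direction that library totals turned for miR-200a and miR-429a. miR-141, miR-200c and miR-429b, the members of the other gene group, did not pass the test on that scale. With library totals limma called these 3 and miR-429a higher at 48 hpf, and with totals without miR-430 it called miR-200b alone (adjusted p = 0.0724 for miR-200a and 0.112 for miR-429a). Median-ratio factors gave the same members as the deposited factors. The difference between the gene groups was not itself tested. limma was fitted to log2 of the normalized reads plus 2, with stage and morpholino as terms, and an adjusted p under 0.05 was called. It called 52.3% of the miRNAs tested, 33.6% as lower at 48 hpf and 18.7% as higher, so the 3 of 6 members called are a share near that of all miRNAs.

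miR-200b had 1594 normalized reads in the MO-Tbx5a library and 2724 in the MO-Ct library at 48 hpf. At 24 hpf it had 6861 and 5428 in MO-Tbx5a pools 1 and 2, and MO-Ct pools 1 and 2 had 5729 and 4486. Both values at 48 hpf lay below all 4 at 24 hpf. limma gave a log2 fold change of -1.42 (SE 0.27, Benjamini-Hochberg adjusted p = 0.00534). This fit takes 1 stage change for both morpholinos. Fitted apart, the value was -1.94 in the libraries labelled MO-Tbx5a and -0.90 in those labelled MO-Ct.

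miR-200a had 1407 and 1678 normalized reads in the MO-Tbx5a and MO-Ct libraries at 48 hpf. At 24 hpf the MO-Tbx5a pools had 3782 and 2864, and the MO-Ct pools 3388 and 2719. limma put its log2 fold change at -1.04 (SE 0.21, adjusted p = 0.00578). miR-429a, which has the seed of miR-200b, had 2359 in the MO-Tbx5a library and 3128 in the MO-Ct library at 48 hpf. At 24 hpf the MO-Tbx5a pools had 6195 and 5077, and the MO-Ct pools 5550 and 4673. limma put its log2 fold change at -0.98 (SE 0.21, adjusted p = 0.00680). For miR-200b, miR-200a and miR-429a both libraries at 48 hpf lay below all 4 at 24 hpf, as they did for 39.7% of all miRNAs tested.

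On the deposited scale the log2 fold changes of the other gene group were smaller in size. miR-141 had 880 normalized reads in the MO-Tbx5a library and 1177 in the MO-Ct library at 48 hpf. At 24 hpf the MO-Tbx5a pools had 1157 and 1077, and the MO-Ct pools 1132 and 1033. miR-200c had 308 and 384 in the MO-Tbx5a and MO-Ct libraries at 48 hpf. At 24 hpf the MO-Tbx5a pools had 391 and 374, and the MO-Ct pools 380 and 345. In both, the MO-Tbx5a library at 48 hpf was the lowest of all 6 libraries and the MO-Ct library at 48 hpf lay within or just above the range at 24 hpf. limma gave a log2 fold change of -0.11 for miR-141 (95% interval -0.56 to 0.34, adjusted p = 0.669) and of -0.11 for miR-200c (95% interval -0.60 to 0.37, adjusted p = 0.677).

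miR-429b, the least abundant member, had 61.3 and 66.2 normalized reads at 48 hpf in the MO-Tbx5a and MO-Ct libraries, from an estimated 112 and 142 reads. At 24 hpf the MO-Tbx5a pools had 95.5 and 66.3, and the MO-Ct pools 51.9 and 38.6, from an estimated 39 to 74 reads per library. The stages overlapped, and the highest and the lowest value were both at 24 hpf. limma gave a log2 fold change of 0.09 (95% interval -0.74 to 0.91, adjusted p = 0.841).

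**Figure D2:**
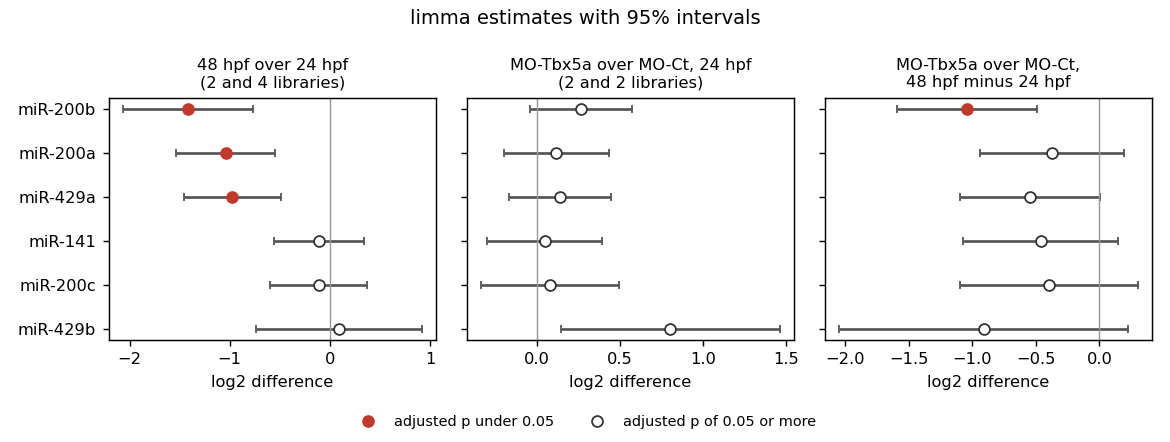
log2 differences of the members (horizontal axes) from limma with 95% intervals, on the deposited scale, for 48 hpf over 24 hpf, for MO-Tbx5a over MO-Ct at 24 hpf, and for the difference of that contrast between the stages. Filled points have an adjusted p under 0.05, and these are miR-200b, miR-200a and miR-429a in the first panel, none in the second and miR-200b in the third.

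The sign of the stage change of some members depended on how the libraries were scaled. With median-ratio factors miR-200b was at -1.11, miR-200a at -0.73 and miR-429a at -0.67 in log2, and limma called these 3 members. Scaled by library totals and not by the deposited factors, the median log2 change of all miRNAs tested moved by 1.40, miR-200b came to -0.02, miR-200a to 0.36 and miR-429a to 0.42. On that scale miR-429a (adjusted p = 0.0394), miR-141 (log2 fold change 1.29, adjusted p = 0.00187), miR-200c (1.28, adjusted p = 0.00228) and miR-429b (1.45, adjusted p = 0.00601) were called higher at 48 hpf by limma. A scaling moves all miRNAs about alike, so the distance of a member from the median of all miRNAs is nearly the same under each by construction, and it gives only the member's place among them. Over the 4 scalings, miR-200b lay at -1.14 to -1.13 from that median on the log2 scale. miR-200a lay at -0.76 to -0.75 and miR-429a at -0.70 to -0.69. miR-141 lay at 0.17 to 0.18, miR-200c at 0.16 to 0.18 and miR-429b at 0.34 to 0.38. The family's share of all normalized reads showed the same dependence on the total. It was 0.622% and 0.772% in the MO-Tbx5a and MO-Ct libraries at 48 hpf, against 0.498% to 0.581% at 24 hpf. Without the miR-430 family in the total it was 0.656% and 0.911% at 48 hpf, against 0.922% to 1.41% at 24 hpf. The part of the miR-430 family in the stage values was not tested.

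**Figure D3:**
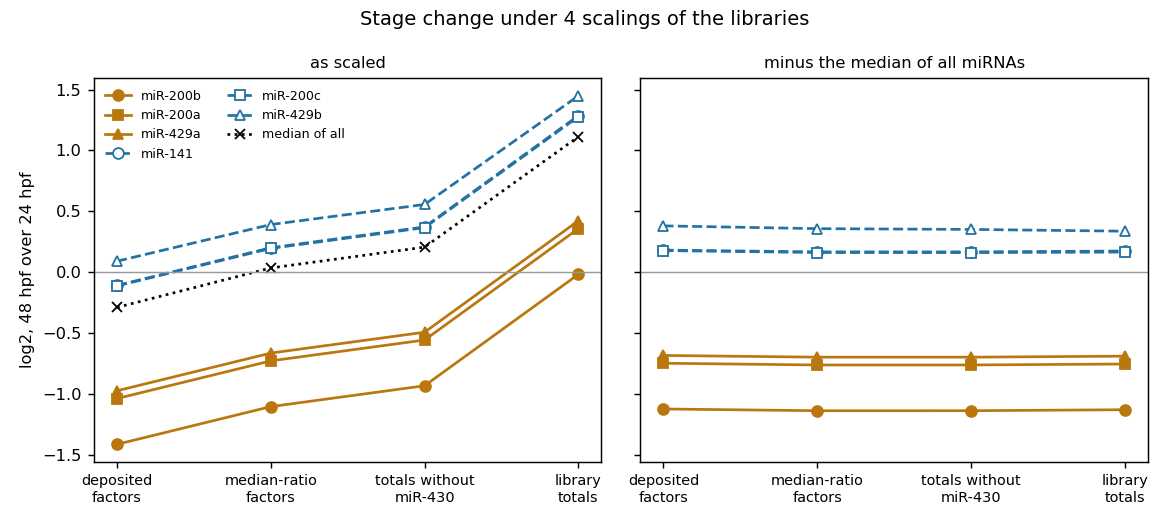
log2 fold change at 48 hpf over 24 hpf of each member (vertical axis) under 4 scalings of the libraries (horizontal axis), as scaled on the left and minus the median of all miRNAs tested on the right. Solid lines are miR-200b, miR-200a and miR-429a, dashed lines miR-141, miR-200c and miR-429b, and the lines of miR-141 and miR-200c nearly coincide. The left panel shifts with the scaling. In the right panel, level by construction, the 2 gene groups lie on opposite sides of 0.

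Ratios between members of a library do not depend on its size factor. The summed normalized reads of miR-200b, miR-200a and miR-429a were 4.29 and 4.63 times those of miR-429b, miR-141 and miR-200c in the MO-Tbx5a and MO-Ct libraries at 48 hpf. At 24 hpf they were 10.2 and 8.81 times in the MO-Tbx5a pools, and the MO-Ct pools had 9.38 and 8.39 times. The stages did not overlap, and the morpholinos differed less than the stages. The share of the family in the smaller group was 18.9% and 17.8% at 48 hpf, against 8.89% to 10.7% at 24 hpf. No test was made of this ratio, which was formed after the members' values were known.

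Within the smaller group, miR-141 and miR-200c had a ratio to each other of 2.86 in the MO-Tbx5a library and 3.06 in the MO-Ct library at 48 hpf, and the 4 libraries at 24 hpf lay between these. Over the 6 libraries their log2 values correlated at r = 0.98, with the size factors shared. miR-200b, miR-200a and miR-429a correlated with each other at r = 0.98 to 1.00 in the same way, and with miR-141 and miR-200c at r = 0.57 to 0.76. miR-429b correlated with the others at r = 0.13 to 0.41. By correlation with the mean of miR-200b, miR-200a and miR-429a, miR-200c ranked 86, miR-141 92 and miR-429b 131 of 211 miRNAs. The pairs of miR-141 with miR-200a and of miR-429b with miR-429a did not keep a fixed ratio. miR-141 had 0.625 and 0.702 times the reads of miR-200a in the MO-Tbx5a and MO-Ct libraries at 48 hpf, against 0.306 to 0.380 times at 24 hpf. miR-429b had 2.60% and 2.12% of the reads of miR-429a at 48 hpf, against 0.826% to 1.54% at 24 hpf.

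The balance of the seeds also differed between the stages. miR-200a and miR-141 together took 34.6% and 31.2% of the family's normalized reads in the MO-Tbx5a and MO-Ct libraries at 48 hpf, against 26.5% to 28.2% at 24 hpf. miR-200b, miR-200c and the miR-429 members took the rest, and miR-200b alone took 24.1% and 29.7% at 48 hpf, against 33.7% to 37.1% at 24 hpf. These shares reuse the members' values given above, rest on 1 library per morpholino at 48 hpf and were not tested.

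**Figure D4:**
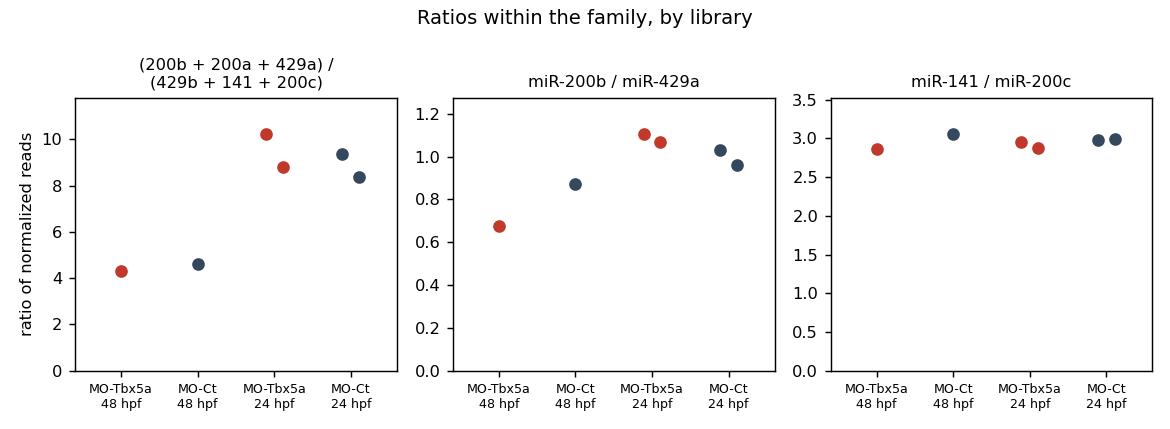
Ratios of normalized reads between members of the same library (vertical axes, from 0), by morpholino and stage (horizontal axes), with libraries as points. The ratio of the 2 gene groups is below 5 at 48 hpf and above 8 at 24 hpf, that of miR-200b to miR-429a is lowest at 0.676 in the MO-Tbx5a library at 48 hpf, and that of miR-141 to miR-200c stays between 2.86 and 3.06.

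At 24 hpf no member was called between the morpholinos. limma was fitted to the 4 libraries and called 16 of 210 miRNAs, or 7.62%, where 3.33% were higher with MO-Tbx5a and 4.29% lower, and 44 had an unadjusted p under 0.05. Of the 6 members, 0 were called and 1, miR-429b, had an unadjusted p under 0.05. miR-429b averaged 80.9 ± 20.6 normalized reads in MO-Tbx5a embryos, while MO-Ct embryos averaged 45.2 ± 9.38 (SD, n = 2 pools each). limma gave it a log2 fold change of 0.80 (SE 0.33, Benjamini-Hochberg adjusted p = 0.108). It was the only member whose groups did not overlap, with MO-Tbx5a higher. Groups did not overlap for 52.4% of the miRNAs tested, and for 22.9% MO-Tbx5a was the higher group.

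miR-200b averaged 6144 ± 1014 normalized reads in MO-Tbx5a embryos, while MO-Ct embryos averaged 5107 ± 879 at 24 hpf (SD, n = 2 pools each). limma gave a log2 fold change of 0.27 (95% interval -0.04 to 0.57, adjusted p = 0.367). Pool 1 had 1.26 times the value of pool 2 in MO-Tbx5a embryos and 1.28 times in MO-Ct embryos. Pool 1 was the higher one for all 6 members in both morpholinos, and over all miRNAs the log2 ratio of pool 1 to pool 2 had a median of 0.07 in MO-Tbx5a and 0.10 in MO-Ct embryos. The log2 fold change between the morpholinos was 0.14 for miR-429a, 0.12 for miR-200a, 0.08 for miR-200c and 0.05 for miR-141, with limma's adjusted p between 0.672 and 0.897 and 95% intervals that lay between -0.33 and 0.49. The median over the 6 members was 0.13, against -0.01 over all miRNAs tested.

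At 48 hpf all 6 members were lower in the library labelled MO-Tbx5a than in the library labelled MO-Ct, as were 52.1% of the 219 miRNAs that reached 10 normalized reads in either library. Of the 6 members, 0 were past a fold of 2, whereas 25.6% of these miRNAs were, and 16.4% were higher with the MO-Tbx5a label and 9.13% lower. There is 1 library per morpholino, so these ratios have no replicate check. With exchanged names all 6 members would be higher with MO-Tbx5a. The ratio of normalized reads, with its 95% exact binomial interval for counting error only, was 0.585 (0.560 to 0.612) for miR-200b, the member furthest from 1. It was 0.748 (0.702 to 0.796) for miR-141, 0.754 (0.726 to 0.784) for miR-429a, 0.801 (0.718 to 0.892) for miR-200c and 0.839 (0.797 to 0.883) for miR-200a. For miR-429b it was 0.926, and its interval of 0.716 to 1.19 held 1. The median log2 ratio of the members was -0.36, against -0.06 over all miRNAs.

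No size factor can change the ratio of miR-200b to miR-429a, which is of the same gene group. This ratio was lowest in 1 library at 48 hpf, that labelled MO-Tbx5a. It was 0.676 there and 0.871 in the library labelled MO-Ct at 48 hpf, against 1.11 and 1.07 in the MO-Tbx5a pools at 24 hpf, where the MO-Ct pools had 1.03 and 0.960. Its ratio to miR-200a was 1.13 and 1.62 at 48 hpf, against 1.81 and 1.89 in the MO-Tbx5a pools at 24 hpf, where the MO-Ct pools had 1.69 and 1.65. At 24 hpf both ratios were higher in MO-Tbx5a than in MO-Ct embryos and at 48 hpf lower as labelled. With exchanged names at 48 hpf both would be higher with MO-Tbx5a at both stages. The ratios reuse the miR-200b values given above, rest on 1 library per morpholino at 48 hpf and were not tested.

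The contrast of the morpholinos was compared between the stages in a fit of the 4 group means. For miR-200b the log2 fold change at 48 hpf minus that at 24 hpf came to -1.04 (SE 0.28, Benjamini-Hochberg adjusted p = 0.00148 from limma). It was the only 1 of 6 members called, while limma called 33.2% of the miRNAs tested, 15.9% with a higher and 17.3% with a lower contrast at 48 hpf. The other members lay between -0.91 for miR-429b and -0.37 for miR-200a, with adjusted p from 0.128 to 0.410 from limma. The spread came from the pools at 24 hpf alone, pooled over miRNAs, and the single libraries at 48 hpf were taken to vary like them. The call on miR-200b was lost without the variance trend (adjusted p = 0.135) and without MO-Tbx5a pool 1, MO-Ct pool 1 or MO-Ct pool 2 (adjusted p = 0.0721, 0.111 and 0.173), and with exchanged names at 48 hpf the value was 0.50 (adjusted p = 0.192).

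Other miRNAs of known tissues give the setting of these values. All 4 mature miRNAs of miR-203 and miR-205, which are abundant in the epidermis, were called lower at 48 hpf than at 24 hpf by limma with the deposited size factors, with log2 fold changes of -1.44 to -0.62, where 33.6% of all miRNAs were called lower and their median was -0.29. Of 7 mesenchymal miRNAs, those of miR-199, miR-214, miR-140, miR-143 and miR-145, 5 were called higher at 48 hpf and 0 lower, with a median log2 fold change of 1.59, where 18.7% of all miRNAs were called higher. With library totals the calls over all miRNAs turned to 154 higher and 12 lower, against 40 and 72, and the lists were not recomputed on that scale. Of 4 mature miRNAs of miR-182, miR-183 and miR-96, which are known from sensory cells, 0 were called between the stages. At 48 hpf, the 3 miR-203 members had log2 ratios of -1.06 to -0.92 in the library labelled MO-Tbx5a over that labelled MO-Ct. For miR-205 it was -0.02. All 4 sensory ones were higher past a fold of 2, up to 1.26 in log2, as were 16.4% of all miRNAs. The study lists the reverse at 48 hpf, with the 3 miR-203 members higher in MO-Tbx5a embryos and miR-182-5p and miR-183 lower. With exchanged names these ratios would turn. For the log2 fold change between the morpholinos at 48 hpf minus that at 24 hpf, the 3 miR-203 members had -1.29 to -1.04 and miR-205 had 0.39. miR-200b had -1.04. The part of these shifts in the values of the miR-200 family was not tested. At 24 hpf limma called none of these 15 miRNAs between the morpholinos. The study lists miR-205 and miR-182-5p as lower in MO-Tbx5a embryos at 24 hpf. limma put their log2 fold changes at -0.41 (adjusted p = 0.0678) and -0.42 (adjusted p = 0.0642).

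The miRNAs most like the family over the 6 libraries, by the correlation of their log2 values with the mean of the 6 members, were miR-26a (r = 0.99), miR-457b (r = 0.99), miR-722 (r = 0.98), miR-23b (r = 0.98) and miR-456 (r = 0.98). All 6 libraries share their size factors between these miRNAs. Since these miRNAs were picked by this correlation, their like direction and order of libraries follow in part from the choice. The mean joins members that did not all move together. The correlation does not measure the size of a change. For 48 hpf over 24 hpf limma gave log2 fold changes of -0.36 for miR-26a (adjusted p = 0.116) and -0.72 for miR-722 (adjusted p = 0.0531). It gave -1.29 for miR-457b (adjusted p = 0.0470), -0.70 for miR-23b (adjusted p = 0.0447) and -1.06 for miR-456 (adjusted p = 0.0189). miR-456 had 444 normalized reads in the MO-Tbx5a library and 831 in the MO-Ct library at 48 hpf. At 24 hpf the MO-Tbx5a pools had 1531 and 1193, and the MO-Ct pools 1355 and 1046. Its order of libraries was that of miR-200b, lowest at 48 hpf under the MO-Tbx5a label.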

How the data were processed

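The members and the lists set beside them were chosen with earlier results of these data known. The authors trimmed reads with Cutadapt, mapped those of 17 to 38 bases to zebrafish precursors of miRBase release 20 with miRExpress (95% identity, length tolerance 4), and scaled the reads of each miRNA with size factors from DESeq, so the deposited values are a signal and not counts. Reads were not placed on a genome, and the order of the members' genes came from the RefSeq annotation of GRCz12tu. Of the values above 0, 99.6% or more per library were whole multiples of 1 step, to within 0.1 reads, which served for estimated reads and counting intervals only. A test of counts was not run.

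Rows were averaged per mature miRNA. limma 3.58.1 in R 4.3.3, with a variance trend, was fitted two-sided to log2(value + 2) for miRNAs whose value reached 10 in 2 or more of the compared libraries, with Benjamini-Hochberg adjustment over all of them and a threshold of 0.05. The pseudocount understates changes of low miRNAs. An exact permutation test of 2 libraries against 2 cannot go below p = 0.333, nor of 2 against 4 below 0.0667. The 2 pools of a group at 24 hpf are separate batches of embryos, and their counts differed beyond sampling noise (chi-square over degrees of freedom, 99.0 for MO-Tbx5a and 109 for MO-Ct). At 48 hpf a fold of 2 between the libraries was counted, with no test. Named miRNAs are all members, the listed ones as counts and ranges, and the 5 most alike. On simulated data with the same spread in every library, the fits were checked only for median estimates near the set changes. That cannot show whether the single libraries at 48 hpf vary like the pools at 24 hpf. Other steps used Python 3.11.15 (pandas 2.3.3, numpy 2.4.6, scipy 1.17.1).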

Additional observations from a re-analysis of the deposited data

Results flagged for a closer look

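miR-200b stood out because its contrast of MO-Tbx5a against MO-Ct differed between the stages, with a log2 fold change at 48 hpf minus that at 24 hpf of -1.04 (Benjamini-Hochberg adjusted p = 0.00148 from limma). In this comparison limma called 33.2% of all miRNAs tested, among them the 3 miR-203 members (-1.29 to -1.04), while miR-205 had 0.39. Such a call was therefore not particular to miR-200b. The call was lost without the variance trend (adjusted p = 0.135) and without MO-Tbx5a pool 1, MO-Ct pool 1 or MO-Ct pool 2 (adjusted p = 0.0721, 0.111 and 0.173), and with exchanged names at 48 hpf the value turned to 0.50 (adjusted p = 0.192).

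miR-429b stood out because both MO-Tbx5a libraries at 24 hpf were above both MO-Ct libraries, while the library labelled MO-Tbx5a at 48 hpf was below that labelled MO-Ct. The log2 difference between the stages was -0.91, and its adjusted p of 0.244 from limma missed the threshold. Its ratio at 48 hpf lay within counting error of 1. At 24 hpf groups did not overlap for 52.4% of the miRNAs tested, and for 22.9% MO-Tbx5a was the higher group. With exchanged names at 48 hpf miR-429b would be higher with MO-Tbx5a at both stages.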

How the results depend on the processing

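Leaving out the 48 hpf libraries in turn was chosen after seeing the data. Of the 6 members, 0 were called at 24 hpf, and 0 with each pool left out. With the replicate block 1 was called, miR-200b (adjusted p = 0.0275 from limma), and 39 of all miRNAs against 16. Pools of the 2 morpholinos share only a number in the labels, and the pool differences of the morpholinos correlated at r = 0.28 across 210 miRNAs. All miRNAs called at 24 hpf numbered 0 with library totals, 6 with median-ratio factors, 2 with totals without miR-430 and 1 without the variance trend. Leaving out a pool gave 0 to 14. With each pool left out, the log2 fold change at 24 hpf ranged from -0.020 to 0.11 for miR-141, from -0.083 to 0.32 for miR-200a and from -0.0046 to 0.28 for miR-429a, with values below 0 only without MO-Tbx5a pool 1 or MO-Ct pool 2.

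The 3 members called between the stages were 3 with each library left out, were 4 with library totals (none of them lower) and were 1, miR-200b, with totals without miR-430, where miR-200a was -0.56 (adjusted p = 0.0724) and miR-429a -0.49 (adjusted p = 0.112). Median-ratio factors again gave 3, with miR-200b at -1.11, miR-200a at -0.73 and miR-429a at -0.67. With library totals the values of miR-200a and miR-429a were 0.36 and 0.42, and those of miR-141 and miR-200c 1.29 and 1.28. These last were 0.20 and 0.19 with median-ratio factors, 0.37 and 0.37 with totals without miR-430, and 0.12 and 0.086 in MO-Ct libraries only. With each library left out miR-141 ranged from -0.34 to 0.12, miR-200c from -0.31 to 0.086 and miR-429b from -0.37 to 0.54, with the extremes without a 48 hpf library. In MO-Tbx5a libraries only miR-429b was -0.37. The split of calls between the stages, 40 higher and 72 lower, was 154 and 12 with library totals, 53 and 50 with median-ratio factors and 63 and 33 with totals without miR-430.

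For the difference between the stages in the morpholino contrast, 1 member was called. With totals without miR-430 and with the replicate block 2 were, miR-429a being added. Without the variance trend and with exchanged names at 48 hpf 0 were, and leaving out each pool gave 0 to 1. With exchanged names the values were 0.37 for miR-141, 0.14 for miR-200a, 0.50 for miR-200b, 0.24 for miR-200c and 0.27 for miR-429a, while miR-429b stayed below 0 at -0.70. All miRNAs called, 71, were 30 without the variance trend, 47 with library totals and 15 to 58 with a pool left out. At 48 hpf a fold of 1.5 counted 1 member, miR-200b, and 105 miRNAs in place of 56. Exchanged names turned the sign of all 6 ratios. The cause of these changes was not tested. The replicate block changed no other call among the members. A test on counts was not run, since the deposited values are normalized.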
